A study of Mus musculus with 39 samples.

Results

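Box C/D small nucleolar RNAs, the Snord genes of the mouse, were examined in nuclear RNA-seq of neocortical nuclei that had been isolated by FANS or by INTACT. The members were all rows of the count tables whose symbol begins with Snord followed by a digit, which gave 74 of 24421 genes. Of these 74 members, 59 reached a mean normalized count of at least 5 in at least 1 of the 3 tables and 56 did so in all 3 tables. A further 9 members were listed at 0 in all 31 libraries, and 6 lay above 0 but under 5 in every table.

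All libraries came from adult mice of both sexes that carried Arc creERT2(TG/WT), a tamoxifen-dependent Cre under the Arc promoter, and the Cre-dependent nuclear membrane tag CAG-Sun1-sfGFP-Myc in the R26 locus, on either 1 (M/WT) or both (M/M) alleles. The mice received tamoxifen, went through a social interaction test a few hours later and were killed some days afterwards, so that cells with an active Arc promoter at that time carried sfGFP on the nuclear membrane. FANS sorted the sfGFP+ nuclei by flow cytometry, whereas INTACT captured nuclei from the same kind of suspension with GFP antibodies on magnetic beads. The 3 tables are 3 batches, with 4 FANS and 4 INTACT libraries in batch 1, 7 and 4 in batch 2, and 7 and 5 in batch 3. There is no group without tamoxifen or without the transgenes, and the Arc driver limits the label to cells in which Arc was active. The study describes each batch as 1 biological source, so p-values measure the spread between these libraries, which may be technical and may leave out variation between animals. It also describes batch 1 as the batch of high RNA integrity, and batch and RNA integrity cannot be told apart here.

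Box C/D snoRNAs are short nucleolar RNAs that carry a C box near the 5′ end and a D box near the 3′ end. They form particles with fibrillarin (Fbl), Nop56, Nop58 and Snu13, and most of them pair with ribosomal RNA to place 2′-O-methyl groups, while a few are needed for the cutting of the ribosomal RNA precursor. In mammals nearly all are made from introns of other genes, called host genes, and are released when the spliced intron is opened and trimmed. In neurons, as in other cells, they mark the nucleolus, and a separate group of them comes from an imprinted locus on chromosome 7. RefSeq annotation of GRCm38 (the mm10 build) placed 57 of the 59 tested members inside a host gene on the same strand, in 44 different host genes, of which 11 hold 2 or more tested members. The tested members had a median annotated length of 66 bases, from 28 (Snord98) to 221 (Snord17). They lay 61 to 5160 bases before the 3′ splice site of their intron with a median of 92, and 35 lay between 60 and 120 bases before it.

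The sequences of the members on which the results turn were read from the RefSeq genome of GRCm38 and are written 5′ to 3′ as the RNA runs, with T for U. Snord15b (chr7:99479563-99479707, minus strand, intron 5 of Rps3) and Snord17 (chr2:144265982-144266202, minus strand, intron 2 of Snx5) are shown because they held most of the Snord reads. Snord118 (chr11:69073426-69073562, plus strand, outside any host gene), Snord37 (chr10:81178961-81179013, plus strand, intron 4 of Eef2) and Snord22 (chr19:8725866-8725991, plus strand, intron 8 of Snhg1) are shown because each differed between the techniques in 1 batch. Capitals mark the D box, CTGA, within the last 25 bases and, in Snord15b, also the C box, TGATGA, within the first 25.
Snord15b: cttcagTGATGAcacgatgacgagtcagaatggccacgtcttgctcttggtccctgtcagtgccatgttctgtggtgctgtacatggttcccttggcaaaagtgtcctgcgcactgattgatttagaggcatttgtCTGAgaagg
Snord17: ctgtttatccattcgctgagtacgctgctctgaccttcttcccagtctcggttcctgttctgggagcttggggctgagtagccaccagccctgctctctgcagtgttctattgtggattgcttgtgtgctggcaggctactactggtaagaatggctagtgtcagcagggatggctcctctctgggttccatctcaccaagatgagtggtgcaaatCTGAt
Snord118: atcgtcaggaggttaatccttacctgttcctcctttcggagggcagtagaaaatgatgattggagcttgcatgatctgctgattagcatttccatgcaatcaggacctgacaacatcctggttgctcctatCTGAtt
Snord37: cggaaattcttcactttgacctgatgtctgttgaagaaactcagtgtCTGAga
Snord22: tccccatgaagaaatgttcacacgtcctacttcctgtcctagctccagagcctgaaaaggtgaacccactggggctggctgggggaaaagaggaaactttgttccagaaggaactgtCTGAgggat

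Snord49a (chr11:62603460-62603521, plus strand, intron 2) and Snord49b (chr11:62603086-62603148, plus strand, intron 1) come from the same non-coding host, 2410006H16Rik, and are shown because their values in batch 1 differed from each other. Capitals mark the longest run of bases that both share, 13 bases. Written in the same order, 47 bases of the longer sequence recur in the other, which is 74.6% of it. Gaps and mismatches cost nothing in this count, so this share is not a percent identity and can be higher than one.
Snord49a: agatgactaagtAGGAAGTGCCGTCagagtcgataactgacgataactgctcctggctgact
Snord49b: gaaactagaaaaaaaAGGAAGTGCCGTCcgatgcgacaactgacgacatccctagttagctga

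The D box letters were found in the last 25 bases of 73 of the 74 members and the C box letters in the first 25 bases of 25, both on the RNA strand only. Among all 1330 snoRNA genes of the annotation, which include box H/ACA RNAs, 734 had the D box letters, 293 the C box letters and 21.1% both, against 33.8% of the members. C boxes vary, so a missing match says only that these letters are not in that window.

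The 9 members listed at 0 were Snord1a, Snord7, Snord14a, Snord14c, Snord14d, Snord45c, Snord116, Snord116l1 and Snord116l2. Snord116l1 and Snord116l2, from the imprinted locus on chromosome 7 (host Snhg14), have the same 90 bases, which occur 31 times in the assembled chromosomes. The authors kept uniquely mapped reads only, so a 0 for these rows does not describe the level of the RNA. The other 71 members that were searched occur once as an exact sequence, including Snord14c and Snord14d in the introns of Hspa8, which have 97.7% of their bases in common order. Snord1a, Snord45c and Snord7 overlap an exon of at least 1 curated host transcript, and no tested member does. How overlapping exons bear on these zeros was not tested. The members closest to the minimum of 5 were Snord95 with means of 6.22, 5.39 and 5.34 in batches 1 to 3, and on the other side Snord42b with 4.4 and 2.54 in batches 1 and 2, and Snord43 with 4.7 in batch 3.

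Depth was 4205665 to 11028713 reads on genes per library, and the INTACT libraries of batch 1 were the deepest. Nuclear RNA gave many reads outside gene features, with a mean share of 83.1% in FANS and 74.3% in INTACT in batch 1, 82.5% and 80.6% in batch 2, and 84.4% and 84.9% in batch 3. The labels call the samples activated neuronal nuclei. All 6 excitatory neuron markers, among them Slc17a7, Camk2a and Neurod6, were measured and none was called in any batch, with 2 lower and 2 higher in batch 1 at an adjusted p under 0.05, but glial markers were measured in every batch too. The summed normalized counts of 6 oligodendrocyte markers ranged from 5694 to 7041 over the FANS and from 9248 to 9686 over the INTACT libraries of batch 1, and 5 of the 6 were called higher in INTACT. In batch 2 the sums were 6441 to 12571 and 12462 to 15153, with 2 of the 6 called higher, and in batch 3 they were 1604 to 2191 and 1980 to 2445, with none called by limma and 2 at an unadjusted p under 0.05. Of 6 astrocyte markers 3, 1 and 0 were called higher in batches 1, 2 and 3, and of 6 inhibitory neuron markers 3, 0 and 0. Of 5 microglia markers 3, 3 and 2 were tested, and 1 was called lower in INTACT in batch 1, with summed counts of 75.9 to 110 in FANS and 59.7 to 75.7 in INTACT, and none in the other batches. In batch 1, 1 of 2 oligodendrocyte precursor markers and the 1 tested of 4 vascular markers were called higher. Each marker of these lists had reads in some library of each batch, but not in every library. No vascular marker reached the minimum mean in batches 2 and 3. The part of RNA from these cell types in the Snord differences was not tested.

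Snord RNA was dominated by 2 members. Snord15b and Snord17, which guide methylation of the large ribosomal RNA, together gave 65.6 to 82.9% of all Snord reads of a library. Per 100 bases of annotated length, the mean normalized count of Snord15b was 11363 in batch 1, 8587 in batch 2 and 7379 in batch 3, whereas the medians over all tested members were 63.1, 41.8 and 43.5 and the lowest values 9.15, 6.62 and 6.5. Snord49b, Snord15a and Snord32a (intron of Rpl13a) followed among the 5 highest levels per length in batches 1 and 2. In batch 3 Snord47 (intron of Gas5) took the place of Snord15a.

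Members of the same host were therefore present at very different levels. Snord15b and Snord15a both lie in introns of Rps3, a protein of the small ribosomal subunit, and Snord15b was 16.8, 17.4 and 20.1 times higher per length than Snord15a in batches 1, 2 and 3. Snord49b was 6.26, 4.78 and 3.94 times higher per length than Snord49a. A count on a member can include reads from the unspliced host intron around it, and these cannot be told apart from the trimmed snoRNA here. The RNA was purified on RNeasy Micro columns, which recover RNAs of this length incompletely, so that levels describe the RNA that reached the libraries.

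**Figure D1:**
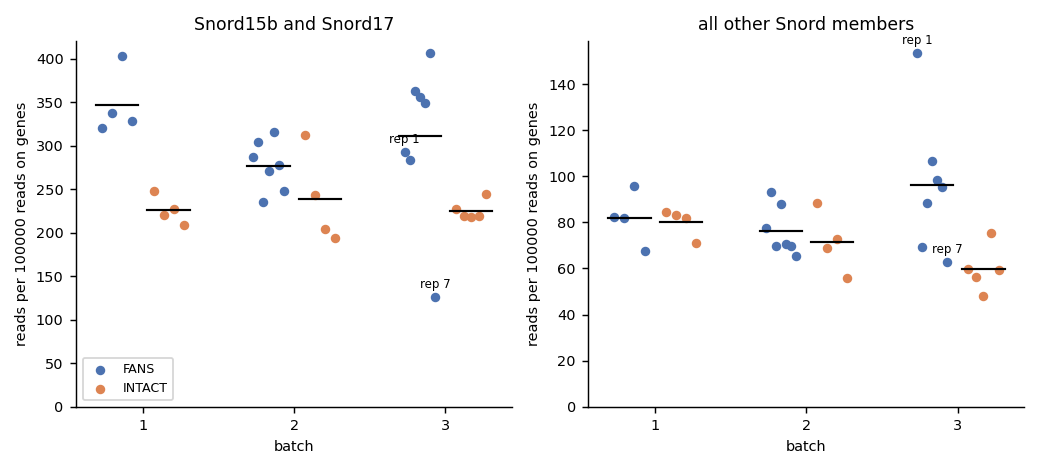
Reads on Snord15b and Snord17 (left) and on all other Snord members (right) per 100000 reads on genes, with 1 point per library, the batch on the x axis and black bars at the group means. In batch 3, FANS replicate 7 had the lowest and FANS replicate 1 the highest level of the other members among the FANS libraries.

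All Snord members together took 396 to 499 of 100000 reads on genes in the FANS libraries of batch 1 and 280 to 333 in the INTACT libraries. In batch 2 the FANS libraries had 305 to 397 and the INTACT libraries 250 to 401, and in batch 3 the FANS libraries had 188 to 502 and the INTACT libraries 267 to 304. The techniques were thus apart in batch 1 and overlapped in the other batches, in batch 3 through FANS replicate 7 alone, at 188.4, since the other FANS libraries had 352.7 or more. Without Snord15b and Snord17, the FANS libraries of batch 1 ranged from 67.8 to 95.9 and the INTACT libraries from 71 to 84.7. In batch 3 the FANS libraries ranged from 62.7 to 154, with replicate 1 highest, and the INTACT libraries from 48 to 75.3. In bulk nuclei, fewer nuclei of a type and less RNA per nucleus cannot be told apart.

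In batch 1, 3 of the 59 tested members were called lower in INTACT and 1 was called higher. The word called stands here for a change of at least 1.5-fold with an adjusted p under 0.05 (limma on log2(normalized count + 1), Benjamini-Hochberg over all genes tested). Over all 15114 genes tested, 3.94% were called lower and 4.03% higher, so the share of members called lower, 3 of 59, was close to the background. The median log2 fold change of the members was -0.11, against 0.01 for all genes, and 34 of the 59 were below 0, against 49.1% of all genes, while 50.9% of all genes were above 0. The median moved between -0.15 and 0.01 when single libraries were left out.

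Snord17 had the largest difference of batch 1. Its normalized count was 5028, 6335, 7591 and 7994 in the FANS libraries and 2759, 2316, 3702 and 3319 in the INTACT libraries. Every INTACT library lay below every FANS library. The means were 6737 ± 1341 and 3024 ± 611 (SD, n = 4 each), a log2 fold change of -1.16 (SE 0.111, limma adjusted p = 1.2e-08).

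Snord15b was lower too but did not reach the 1.5-fold limit. It measured 18967, 18760, 23400 and 16362 in FANS and 15747, 13769, 12901 and 11902 in INTACT, again without overlap. The log2 fold change was -0.51 (SE 0.0758, limma adjusted p = 8.52e-06). Without FANS replicate 4, Snord15b passed the limit and was called, and without INTACT replicate 3 Snord4a (host Rpl23a), which is at -0.54 with all libraries, was called.

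Snord118, the U8 snoRNA, is transcribed from its own promoter and is needed for the processing of the large-subunit ribosomal RNAs. In batch 1 its normalized count was 78.5, 73.6, 58.6 and 102 in FANS and 61.4, 26.8, 37.9 and 32.4 in INTACT. The groups overlapped through INTACT replicate 1 and FANS replicate 3. The log2 fold change was -1.01 (SE 0.211, limma adjusted p = 0.000493).

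Snord118 did not show this difference elsewhere. Its means were 40 ± 6.45 in FANS (SD, n = 7) and 41.8 ± 5.35 in INTACT (SD, n = 4) in batch 2, and 36.8 ± 12.6 (SD, n = 7) and 36.9 ± 2.36 (SD, n = 5) in batch 3. The technique effect differed between batches, by 1.08 on the log2 scale between batches 2 and 1 (interaction, limma adjusted p = 0.0203) and by 1.07 between batches 3 and 1 (limma adjusted p = 0.00537). The first of these interactions was lost when FANS replicate 4, INTACT replicate 2 or INTACT replicate 4 of batch 1 was left out.

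Snord49a and Snord49b, whose sequences are given above, went apart in batch 1. Snord49a was at 92.6, 102, 127 and 127 in FANS and at 58.8, 63.5, 72.4 and 68.1 in INTACT, with no overlap, and its log2 fold change was -0.75 (SE 0.138, limma adjusted p = 0.000114). Snord49b was at 567, 538, 548 and 428 in FANS and at 604, 704, 604 and 531 in INTACT, with overlapping groups and a log2 fold change of 0.23 (SE 0.083, limma adjusted p = 0.0304), under the 1.5-fold limit. Snord65, from intron 4 of the same host, also stood at 0.23 and did not pass the test (limma adjusted p = 0.227). The exons of the host 2410006H16Rik had means of 149 ± 15 in FANS and 190 ± 10.2 in INTACT (SD, n = 4 each).

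Snord37 was the one member called higher in INTACT. This RNA of 53 bases was at 14.2, 19.6, 19.1 and 13.8 in FANS and at 48.4, 33.6, 33.2 and 27.8 in INTACT, and every INTACT library lay above every FANS library. The log2 fold change was 1.05 (SE 0.243, limma adjusted p = 0.00136), on 9 to 56 reads per library. Its host Eef2, the translation elongation factor, was also called higher in batch 1, at 905 ± 40.1 in FANS and 1484 ± 51.1 in INTACT (SD, n = 4 each), which is 0.71 on the log2 scale (limma adjusted p = 1.21e-10). The next largest positive values of batch 1 were 0.6 for Snord43 (host Rpl3) and 0.51 for Snord92 (host Wdr43), and neither passed the test.

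**Figure D2:**
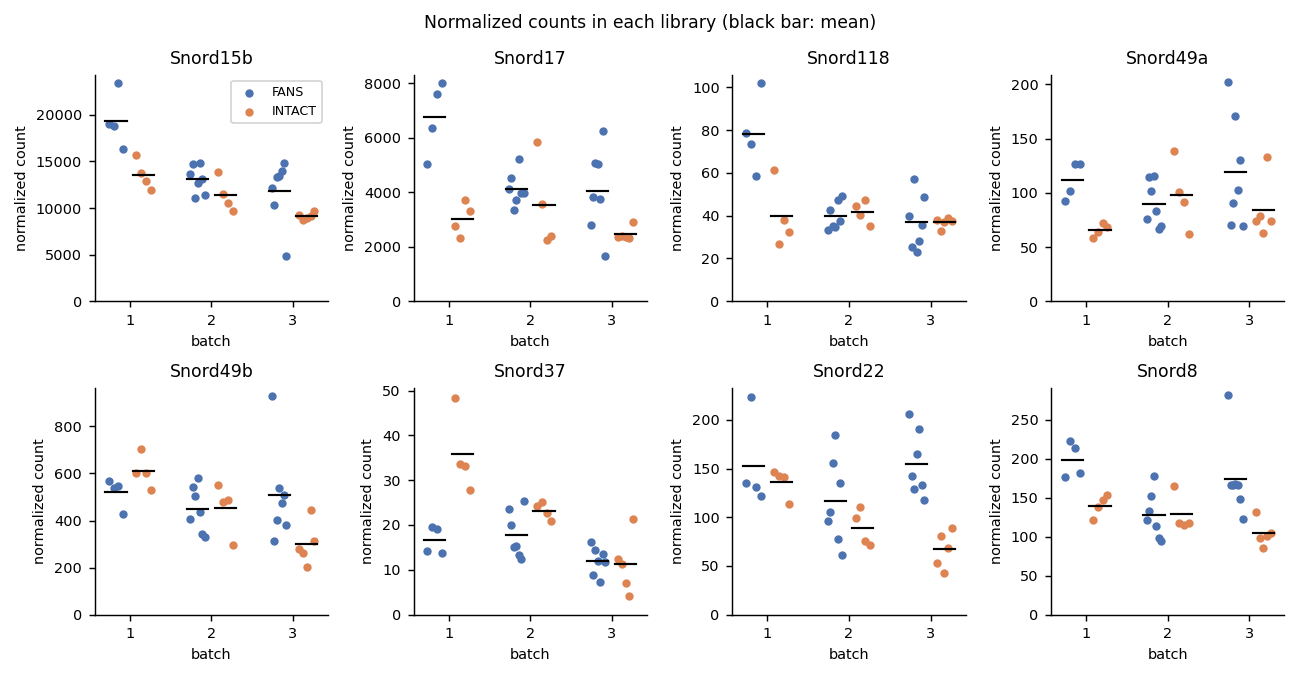
Normalized counts of 8 Snord members in every library, by batch (x axis) and technique (colour), with black bars at the group means and axes that start at 0. Snord15b, Snord17, Snord49a, Snord37 and Snord8 separated the techniques in batch 1 without overlap, and Snord22 did so in batch 3.

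The groups did not overlap for 7 members in batch 1, 6 lower in INTACT (Snord17, Snord49a, Snord4a, Snord15b, Snord8 and Snord111) and 1 higher (Snord37). Over all genes of that batch 16.5% had no overlap with INTACT lower and 17.1% with INTACT higher. At an adjusted p under 0.05 without the limit of 1.5-fold, 8 members were lower and 2 higher, where 17.5% and 18.6% of all genes passed. Members with few reads had wide errors, with a median SE of 0.332 on the log2 scale for the 17 members at 5 to 20 normalized counts and 0.118 for the 17 at 100 or more.

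In batch 2, no member was called in either direction, against a background of 0.0336% lower and 0.0941% higher over 14876 genes. At an unadjusted p under 0.05, limma had 6 of the 59 tested members and 2268 of all genes. DESeq2 and edgeR on the recovered reads also called 0 members. No member passed at an adjusted p under 0.05 alone, where 0.309% of all genes were lower and 0.834% higher, and no member had groups without overlap, where 1.4% of all genes did with INTACT lower and 1.59% with INTACT higher. The median log2 fold change was -0.06, against 0 for all genes, and 32 of 59 members were below 0, against 50.2% of all genes below and 49.8% above.

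Snord17 illustrates the spread in batch 2. The FANS libraries had a lowest value of 3350, a median of 3964 and a highest of 5231, and the INTACT libraries had 5840, 3561, 2254 and 2390. INTACT replicate 1 was above every FANS library, and without it Snord17 was the 1 member called lower. With all libraries its log2 fold change was -0.33 (SE 0.151, limma adjusted p = 0.292). INTACT replicate 1 also had the largest share of Snord reads of its group, 400.8 of 100000, where the others had 250 to 312.1.

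The largest log2 fold changes of batch 2 fell on members with few reads. Snord71 (host Ap1g1, an adaptor protein of vesicle transport) had -0.75, Snord38a -0.55 and Snord90 (host Rc3h2) -0.53. In the other direction, Snord19 (host Gnl3, a nucleolar GTP-binding protein) had 0.64, Snord43 (host Rpl3) 0.42 and Snord37 0.4. None passed the test, with limma adjusted p values from 0.236 to 0.676. The median SE of the 21 members at 5 to 20 normalized counts was 0.307 in this batch.

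In batch 3, 12 of the 56 tested members were called lower in INTACT and none higher. The background over 14440 genes was 0.346% called lower and 0.0139% called higher. The median log2 fold change of the members was -0.55, against 0 for all genes, and 52 of 56 were below 0, against 51.1% of all genes below and 48.9% above. The same 12 members and no others passed at an adjusted p under 0.05 without the limit of 1.5-fold, where 0.519% of all genes were lower and 1.18% higher. At an unadjusted p under 0.05, 31 of the 56 members and 1985 of all genes had passed. The members called lower were Snord8, Snord12, Snord16a, Snord22, Snord47, Snord49b, Snord65, Snord67, Snord68, Snord70, Snord83b and Snord104, and their host genes range from ribosomal proteins to non-coding RNAs and a chromatin remodeller.

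**Figure D3:**
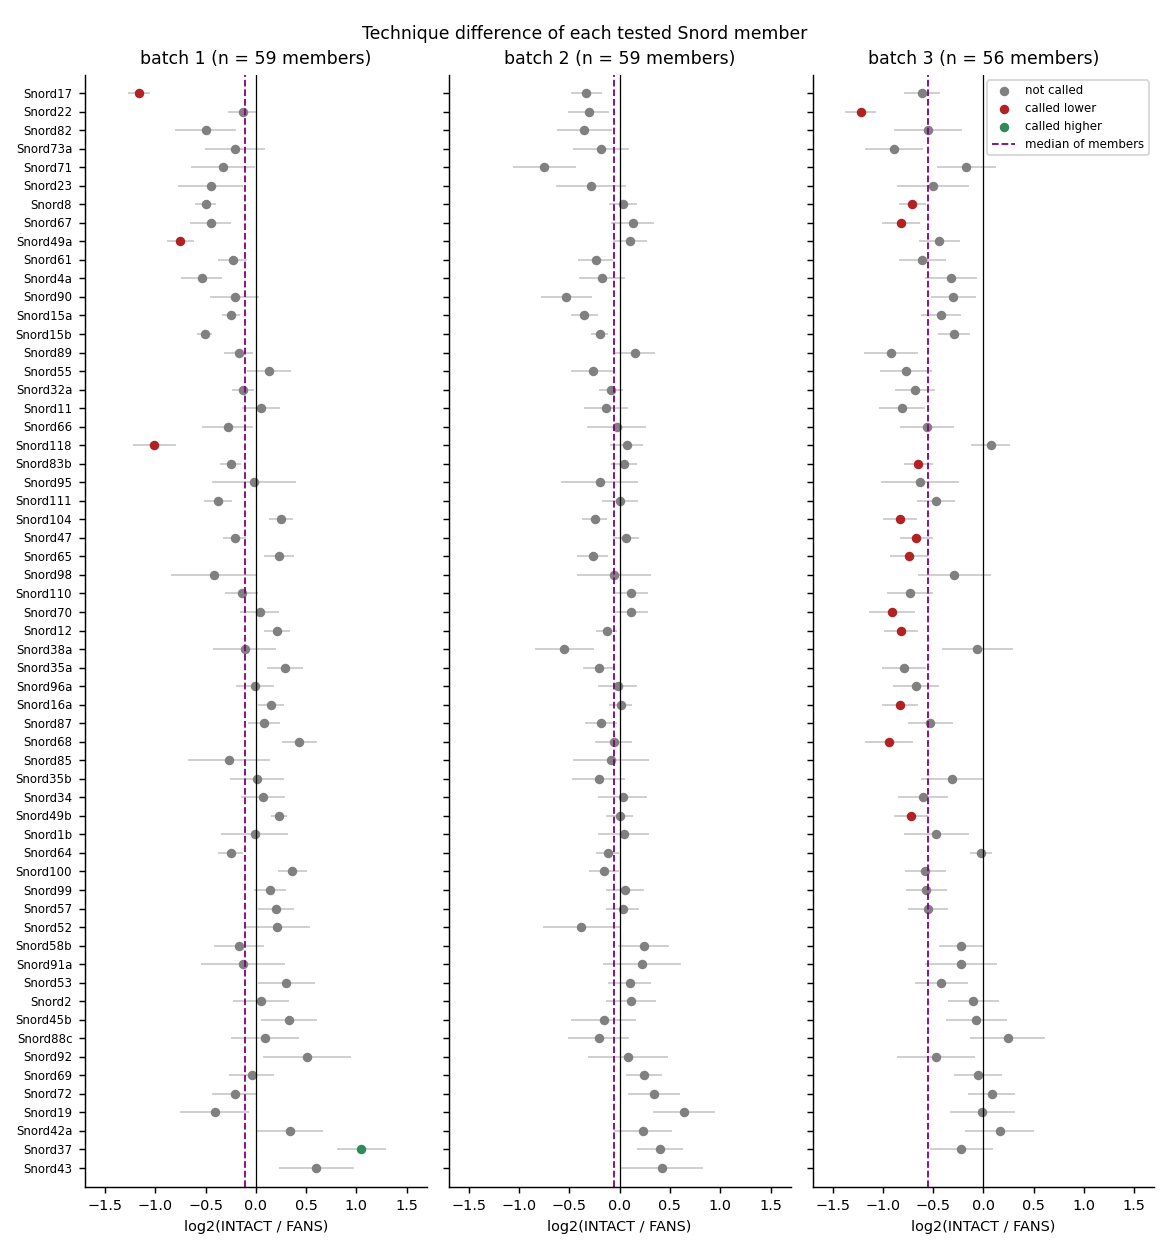
Log2 fold change (x axis, INTACT over FANS) of every tested member in each batch, with bars of 1 SE, members sorted by their mean over batches, called members coloured and the dashed line at the median of the members. The medians are -0.11, -0.06 and -0.55, and most points of batch 3 lie left of 0.

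Snord22, the U22 snoRNA needed for maturation of the small-subunit ribosomal RNA, had the largest difference of batch 3. In the FANS libraries its lowest, median and highest normalized counts were 118, 142 and 206, and the INTACT libraries had 52.5, 81.2, 43.1, 68.8 and 89.3. It was the one member whose groups did not overlap in batch 3, where 0.589% of all genes had no overlap with INTACT lower and 0.997% with INTACT higher. The log2 fold change was -1.22 (SE 0.153, limma adjusted p = 2.86e-05).

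The exons of its host Snhg1, a non-coding RNA whose introns hold several snoRNAs, had means of 141 ± 22.8 in FANS (SD, n = 7) and 144 ± 19.6 in INTACT (SD, n = 5), a log2 fold change of 0.04. In batch 1 Snord22 was at 135, 224, 131 and 122 in FANS and at 147, 142, 141 and 114 in INTACT, with a log2 fold change of -0.13 that did not pass. The difference between the effects in batches 3 and 1 was -1.09 (interaction, limma adjusted p = 0.0057).

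Snord8, from an intron of Chd8, a chromatin remodeller, and Snord104 were the other members called under each of the 22 settings tried in batch 3. Snord8 had 123, 166 and 281 as lowest, median and highest FANS values and 131, 97.7, 85.2, 101 and 105 in INTACT, with overlap through FANS replicate 7 (log2 fold change -0.71, SE 0.134, limma adjusted p = 0.00303). The annotation also has Gm26590 on the opposite strand of Snord8 and Gm17344 on that of Snord71. The strand setting of the counting is not given in the sources used here, so the values of these members are uncertain. Snord104 had 106, 175 and 303 in FANS and 110, 84.3, 73.2, 139 and 87.3 in INTACT (log2 fold change -0.83, SE 0.168, limma adjusted p = 0.00553).

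The remaining 9 calls of batch 3 changed with the processing and with single libraries. Without a filter on low values 7 members were called, with Snord47, Snord49b, Snord65, Snord68 and Snord70 lost. DESeq2 on the recovered reads called 9, with Snord16a, Snord47, Snord49b and Snord83b lost and Snord11 gained, and a fit with the replicate number as a block called 28, which included the 12. Without INTACT replicate 3 only 3 members were called, without FANS replicate 1 or INTACT replicate 5 there were 6, without INTACT replicate 2 there were 7, without INTACT replicate 1 there were 8, without FANS replicate 3 there were 9 and without FANS replicate 5 or 6 there were 10. Without FANS replicate 7 the count was 21, and without FANS replicate 2 it was 17. Leaving out FANS replicates 1 and 7 together, an alternative chosen after seeing the data, gave 13 members called lower, of which 9 were among the 12. FANS replicate 1 had a median deviation of 0.91 on the log2 scale from the batch means of the members, with 50 of 56 members above them, whereas FANS replicates 2 and 7 were both at -0.27. The INTACT libraries were at -0.3, -0.41, -0.59, 0.08 and -0.26. FANS replicate 7 also had the largest share of reads outside gene features of its batch, 87.5%, and the part of this in the Snord values was not tested.

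Snord68 (host Rpl13) and Snord70 (host Nop58, a core protein of the box C/D particle) were lower by -0.94 and -0.91 on the log2 scale. The FANS values of Snord68 ran from 31.1 over a median of 50.9 to 89, and the INTACT values were 32.9, 20.6, 15, 40 and 26.4. Snord70 had a lowest, median and highest value of 27.2, 58 and 90.9 in FANS and 20.6, 26.7, 23.1, 39 and 27.4 in INTACT. Both overlapped between the techniques, and Snord68 lost the call in 6 and Snord70 in 7 of the fits that left out 1 library.

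The other calls were of like size. Snord16a (host Rpl4) was at -0.83, Snord12 (host Zfas1, a non-coding RNA) and Snord67 (host Ckap5, a microtubule protein) at -0.82, Snord65 at -0.74, Snord49b at -0.72, Snord47 at -0.67 and Snord83b (host Rpl3) at -0.65, with limma adjusted p values from 0.00594 to 0.0366. Snord49a, which was called in batch 1, had -0.44 in batch 3 and did not pass (limma adjusted p = 0.345). Snord89, which the annotation places outside any host gene, had -0.92 and did not pass either (limma adjusted p = 0.0689), with values in FANS from 60.2 to 219 and in INTACT from 22.1 to 77.

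Neither of the 2 most abundant members was called by limma in batch 3. Snord15b had 4819, 13327 and 14810 as lowest, median and highest FANS values and 9278, 8733, 8881, 9153 and 9670 in INTACT, a log2 fold change of -0.29 (SE 0.158, limma adjusted p = 0.425). Snord17 had 1645, 3837 and 6225 in FANS and 2360, 2387, 2368, 2329 and 2912 in INTACT, a log2 fold change of -0.61 (SE 0.18, limma adjusted p = 0.0803). In both, FANS replicate 7 was below every INTACT library, and Snord17 was called when it was left out. Snord17 was also called by edgeR on the recovered reads (log2 fold change -0.71) and with the replicate block (-0.7), while Snord15b was called under none of the settings tried in batch 3.

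The members with the highest log2 fold changes in batch 3 were close to 0. Snord88c (intron of 2410002F23Rik) had 0.24, Snord42a (host Rpl23a) 0.16, Snord72 (host Rpl37) 0.08 and Snord118 0.07, and none passed the test. Snord64, from the imprinted Snhg14 locus, was at 87.2, 112 and 121 in FANS as lowest, median and highest and at 103, 134, 95.3, 114 and 91.3 in INTACT, a log2 fold change of -0.02 (SE 0.109).

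Set over the batches, 18 of the 56 members tested in all 3 batches had a log2 fold change below 0 in each, or 32.1%, against 17% of all genes. Above 0 in each batch was 1 member of 56, or 1.79%, against 17.2% of all genes. The 18 included Snord17, Snord15a, Snord15b, Snord22 and Snord32a. In a fit of all 31 libraries, the technique effect averaged over batches was below 0 for 47 of 56 members with a median of -0.25, against -0.01 for all genes.

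Averaged over batches, 1 of the 56 members was called lower, Snord17, at -0.7 (SE 0.12, limma adjusted p = 1.52e-05), and none higher. The background of this average was 0.44% lower and 0.244% higher. At an adjusted p under 0.05 without the limit of 1.5-fold, 11 members were lower and none higher, where 12.4% and 12.7% of all genes passed. After Snord17, the largest of these averages were Snord22 at -0.55 (limma adjusted p = 0.000421) and Snord8 at -0.39 (limma adjusted p = 0.000577).

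The effect in batch 3 minus that in batch 1 was lower for 12 members and higher for 1, Snord118, at an adjusted p under 0.05. Among all genes, 11.2% had a lower and 12.1% a higher effect in batch 3 by the same test. The largest of these differences belonged to Snord68 at -1.37 (SE 0.333, limma adjusted p = 0.00208), which had 0.43 in batch 1, and to Snord37 at -1.26 (SE 0.4, limma adjusted p = 0.0177). Between batches 2 and 1 the effect was higher for 1 member, Snord118, and lower for none, with 4.43% and 1.87% of all genes. Between batches 3 and 2 no member and no gene passed at an adjusted p under 0.05 with limma, while 17 of 56 members and 1831 of 14332 genes had an unadjusted p under 0.05, and without FANS replicate 7 of batch 3 there were 4 members lower.

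The exons of the host genes had other values than their members. In batch 1 the exons of the 43 measured hosts had a median log2 fold change of 0.27, with 9 of 43 below 0, while the 56 members with a measured host had a median of -0.07, and 45 of the 56 members were below their host. All 16 hosts that code for ribosomal proteins or translation factors were above 0 in batch 1, with a median of 0.37, and their 23 members had a median of -0.01. Eef2 and Rpl23a (0.61) were among the hosts called higher, and Snhg14 (-0.63) was called lower.

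Called members and called hosts coincided once. Of the 3 members called in batch 1 with a measured host, 1 had a called host, Snord37 in Eef2. Snx5, a sorting nexin and the host of Snord17, had means of 533 ± 52.6 in FANS and 665 ± 34.9 in INTACT (SD, n = 4 each), a log2 fold change of 0.32, while Snord17 was lower. Rps3, the host of Snord15b, had 120 ± 4.69 and 156 ± 11.2, a log2 fold change of 0.37.

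**Figure D4:**
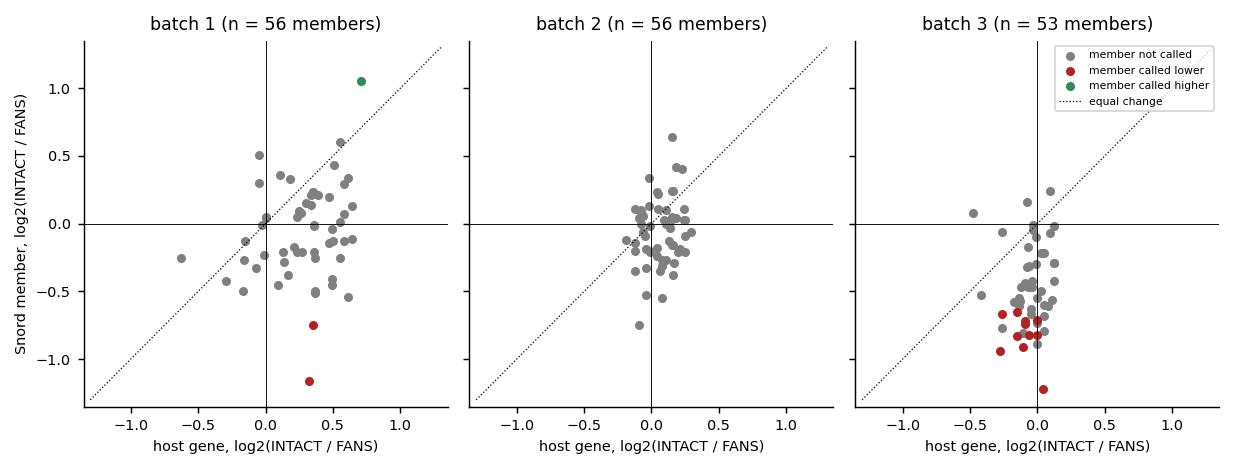
Log2 fold change of each member (y axis) against that of its host gene's exons (x axis) in each batch, with called members coloured and the dotted line at equal change. In batch 3 the hosts lie within -0.48 to 0.12 while the 11 called members with a measured host lie between -1.22 and -0.65.

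In batch 3, none of the 41 measured hosts was called, where 0.346% of all genes were called lower and 0.0139% higher. The median log2 fold change of the hosts was -0.04, while that of their 53 members was -0.55. Of these 53 members, 48 were below their host. The hosts of the called members ranged from -0.28 for Rpl13 (host of Snord68) and -0.26 for Gas5 (host of Snord47) over 0 for Chd8 and Ckap5 to 0.04 for Snhg1. Gas5 had means of 1573 ± 299 in FANS (SD, n = 7) and 1292 ± 114 in INTACT (SD, n = 5) and did not pass (limma adjusted p = 0.154). In batch 2 no host was called either, where 0.0336% of all genes were called lower and 0.0941% higher. The 43 hosts of batch 2 had a median of 0.06, and 39 of 56 members were below their host. Over the members, the Spearman correlation of member and host log2 fold changes was 0.195 in batch 1 (n = 56), 0.125 in batch 2 (n = 56) and 0.221 in batch 3 (n = 53). These correlations are across members that share libraries and in part hosts, and are descriptions only. Snord104, whose annotated host Gm36220 has no row in the tables, and the 2 members without a host are not in these numbers.

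For several hosts the members lay closer together in batch 3 than in batch 1. The 3 tested members of Rpl13a, a protein of the large subunit, were at -0.68 (Snord32a), -0.6 (Snord34) and -0.79 (Snord35a) in batch 3, and at -0.13, 0.07 and 0.29 in batch 1. None of the 3 was called by limma in batch 3. edgeR on the recovered reads called Snord35a there, and Snord32a and Snord35a were both called with the replicate block and without FANS replicate 2 or 7, and Snord32a also without INTACT replicate 4. The technique effect on Snord35a differed between batches 3 and 1 by -1.08 (interaction, limma adjusted p = 0.0113). The 3 members of 2410006H16Rik lay within 0.3 of each other on the log2 scale in batch 3 and within 0.98 in batch 1. The pair of Nop58 (Snord11 and Snord70) went the other way, 0.01 apart in batch 1 and 0.11 in batch 3.

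By the kind of host, the 11 members tested in batch 3 that lie in non-coding RNAs were all below 0 with a median of -0.67, and 6 of them were called. The 22 members in ribosomal protein and translation factor genes had a median of -0.57, with 3 called, the 11 in genes for nucleolar and ribosome assembly proteins -0.5, with 1 called, and the 10 in other protein genes -0.39, with 2 called. In batch 1 the same classes had medians of 0.11, -0.01, -0.04 and -0.33. The order of the classes was thus not the same in these batches, and differences between classes were not tested.

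Abundance and size went with the differences to some extent. In batch 3 the 15 members at 100 or more normalized counts had a median of -0.67 and 8 were called lower, the 20 at 20 to 100 had -0.64 and 4 called, and the 21 at 5 to 20 had -0.29 and none called. Over all genes of batch 3, in the same order, the median was -0.01, 0 and 0.01, and 0.34%, 0.478% and 0.121% were called lower. The pseudocount of 1 and the wider error of low members (median SE 0.324 at 5 to 20 against 0.168 at 100 or more) move with this order, and their part was not tested. From the highest to the lowest of these classes, the medians were -0.13, -0.11 and -0.01 in batch 1 and -0.12, 0.03 and -0.09 in batch 2.

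**Figure D5:**
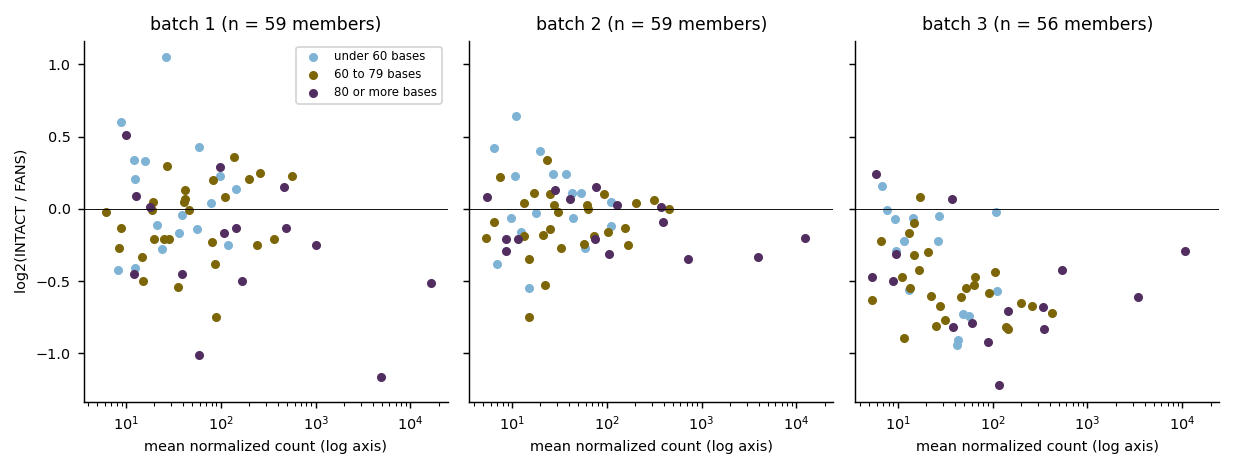
Log2 fold change (y axis) of each tested member against its mean normalized count (x axis, log axis) in each batch, coloured by annotated length. In batch 3 the 15 members at 100 or more normalized counts are all below 0.

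By length, the class of the longest members had the lowest median in each batch. Members of 80 bases or more had medians of -0.17, -0.2 and -0.61 in batches 1, 2 and 3, those of 60 to 79 bases -0.02, -0.09 and -0.57, and those under 60 bases 0.04, 0.05 and -0.22. The Spearman correlation with length was -0.288, -0.336 and -0.265 (n = 59, 59 and 56). Longer members also had higher counts, with a correlation of length and mean count of 0.344, 0.31 and 0.302. The log2 fold change itself had a correlation with the mean count of -0.0604 and -0.0749 in batches 1 and 2, nearer to 0 than that with length, and of -0.477 in batch 3. These are descriptions over members that share libraries. The 3 members under 60 bases that were called lower in batch 3 were Snord68 with 48 bases, Snord70 with 53 and Snord65 with 57.

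The box H/ACA family had lower medians than Snord in each batch. Of these RNAs (Snora), which guide pseudouridylation, 6 of 32 tested were called lower in batch 1, 1 of 32 in batch 2 and 19 of 31 in batch 3, with median log2 fold changes of -0.19, -0.25 and -0.91, and 1 was called higher in batch 1. The 9 small Cajal body RNAs (Scarna), which guide modification of spliceosomal RNAs, had medians of 0.04, -0.18 and -0.81, with 1, 1 and 5 called lower in batches 1, 2 and 3 and 2, 0 and 0 called higher. The shares of all genes called were those given above, 3.94%, 0.0336% and 0.346% lower and 4.03%, 0.0941% and 0.0139% higher. Whether the families differ from Snord was not tested.

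The proteins that bind or process box C/D snoRNAs showed no such shift. Of the 4 core proteins, none was called in any batch, and in batch 3 they lay between -0.11 and 0. Fbl, the methyltransferase, had log2 fold changes of -0.03, 0.01 and -0.01 in batches 1 to 3. Nop56 had 0.47 in batch 1 (limma adjusted p = 1.94e-07), under the 1.5-fold limit, and 0.24 and 0 in the other batches. Of 9 assembly factors and 5 enzymes of intron opening and RNA trimming, none was called in any batch. In batch 1, without the limit of 1.5-fold, the assembly factors Znhit6 (-0.42) and Rpap3 (-0.26) were lower and Nolc1, Pih1d1 and Ruvbl2 higher at an adjusted p under 0.05, and of the enzymes Exosc10, a nuclear exosome subunit, was higher by 0.2 (limma adjusted p = 0.0222).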

How the data were processed

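Nuclear RNA-seq of sfGFP+ neocortical nuclei was analysed from 3 tables, 1 per batch, with 31 libraries. 2 RNA libraries of the labels had no column and the 6 ATAC-seq libraries were not used. According to the methods, the authors aligned single-end Ovation SoLo reads to mm10 with STAR, removed duplicates by molecular identifiers, kept uniquely mapped reads, used HTSeq for gene counts and DESeq for size factors. What they deposited is a signal per gene, the count over the size factor of its library, without gene length. Levels were compared within a batch only. Whole reads were recovered from the steps between values, and 100% of 539508 values were whole within 0.1. The columns were matched to the labels by their numbers.

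The comparison of FANS and INTACT in a batch used limma-trend (limma 3.58.1, R 4.3.3) and values transformed as log2(normalized count + 1). Genes entered it at a mean of 5 or more. This scale understates the change of low genes. Members were called at a Benjamini-Hochberg adjusted p under 0.05 over all genes tested and 1.5-fold. All 31 libraries entered 1 fit for the average over batches and the interactions. Simulated 2-fold changes (1 on the log2 scale) were recovered in 84.7%, 79.8% and 84.5% of cases in batches 1, 2 and 3. The simulations covered 15114, 14876 and 14440 genes. Changed genes were drawn from all genes tested, and genes varied independently, so these rates are not those of the Snord members. Alternatives were a pseudocount of 5, no filter, a minimum mean of 20, 75th percentile scaling, quantile normalization, edgeR 4.0.16, DESeq2 1.42.0, a replicate block and leaving out single libraries. Same-numbered FANS and INTACT libraries had correlations of their deviations from -0.0704 to 0.112. Numbers 2 and 5 of batch 3 were each other's best match. Low correlations cannot exclude a pairing, and the main tests treated the libraries as unpaired.

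Coordinates, hosts and sequences came from RefSeq's annotation of GRCm38.p6, in which 73 members matched by symbol and Snord116 by an older symbol. A host is a gene on the same strand that spans the member. Named members were those called, the 5 most abundant and the 3 largest changes in each direction per batch, members of hosts with 3 or more, and members without a host. Snord64, Snord4a and Snord111, and the hosts and proteins named beside them, were named after their values were seen or as part of the lists. Members, lists and rules were chosen with earlier results of these data known. No 2 libraries had the same values.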

Additional observations from a re-analysis of the deposited data

Results flagged for a closer look

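Among 202 groups of 4 to 7 libraries, 12 had 1 library far from the rest, or 5.94%, where chance gives about 5%. In batch 1, Snord22 was at 224 in FANS replicate 2, against 122 to 135 in the others. In batch 2, Snord16a was at 516 in FANS replicate 2, against 299 to 392, and Snord8 at 165 in INTACT replicate 1, against 115 to 118. The share of Snord reads on Snord15b and Snord17 was 73.7% in INTACT replicate 3 of batch 2, against 77.6 to 78%.

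In batch 3, FANS replicate 1 stood high for Snord49b (928, against 314 to 538), Snord65 (115, against 40.8 to 72.3), Snord8 (281, against 123 to 168) and Snord83b (397, against 191 to 240), all of which were called in that batch. FANS replicate 7 stood low for Snord15a, at 193 against 586 to 807. INTACT replicate 4 stood high for Snord47 (256, against 158 to 178) and Snord49a (133, against 63.2 to 78.2), and INTACT replicate 5 for Snord17 (2912, against 2329 to 2387).

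The technique effect differed between batches for several named members, by a test of the difference itself (limma interaction, adjusted p under 0.05). Between batches 2 and 1 the difference was 1.08 on the log2 scale for Snord118. Between batches 3 and 1 it was 1.07 for Snord118, -1.37 for Snord68, -1.26 for Snord37, -1.09 for Snord22, -1.08 for Snord104 and Snord35a, -1.03 for Snord12, -0.99 for Snord16a, -0.97 for Snord65, -0.96 for Snord49b and -0.95 for Snord70. RNA integrity, depth and the share of reads outside gene features differ between these batches and cannot be told apart from the batch.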

How the results depend on the processing

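In batch 1 the 4 calls held under each of the 17 settings, and leaving out single libraries gave 3 to 4 members lower and 1 higher. In batch 2 no setting called a member except leaving out single libraries, which gave 0 to 1 lower. In batch 3 the 12 members called lower became 7 without a filter on low values and 28 with a replicate block, which leaves FANS replicates 6 and 7 without a partner; DESeq2 called 9, edgeR 14, and leaving out single libraries gave 3 to 21. The labels name no shared source for libraries of the same number, and not every library correlated best with its own number. Whether these libraries are paired is not known. The block changed no count of called members in batches 1 and 2. Without single libraries, the average over batches gave 1 to 2 members lower, the effect of batch 2 minus batch 1 gave 0 to 2 higher, that of batch 3 minus batch 1 gave 9 to 15 lower, and that of batch 3 minus batch 2 gave 0 to 4 lower. The medians of the members ran from -0.15 to 0.01 in batch 1, -0.13 to 0.05 in batch 2 and -0.64 to -0.42 in batch 3. Among named members, 50 values lost and 22 gained their call and none reversed; the cause was not tested. Members at few reads had the widest errors.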
